A study of Homo sapiens with 9 samples.

Results

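SIK1, CREM, CREB1, NR4A1, NR4A2, RCAN1, PPP3CA and NFATC3 are 8 genes at the nuclear end of calcium and cyclic AMP signalling. They were taken by symbol from the 61093 rows of a gene count table, and each of the 8 matched 1 Ensembl identifier. All 8 were among the 17492 genes tested, a set that needed 3 libraries with a value of 10 or more. The 8 were selected on their levels and group differences in these same 9 libraries, so those values are a description and support nothing.

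The study sequenced total RNA of HepG2, by its label an established liver cancer line, in 9 libraries. In the study's terms 3 received 2-APB, an agonist of the cation channel TRPV2, 3 received SKF-96365, an inhibitor of it, and 3 were controls whose treatment field reads NULL. The 2-APB group goes by ABP in its titles and by TRPV2 in the table's columns, and the treatment field was followed. Dose, duration, vehicle and batch are not stated, nor whether a group's libraries came from separate cultures, so p-values measure only the spread between these libraries, which may be technical. Both compounds are known to act on other calcium channels too, among them store-operated channels and, for 2-APB, the inositol trisphosphate receptors.

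CREB1 is a transcription factor that binds the cyclic AMP response element (CRE) and is activated when protein kinase A or calcium-calmodulin kinases phosphorylate it. Salt-inducible kinases such as SIK1 phosphorylate the CRTC coactivators of CREB1 and so keep them out of the nucleus, and SIK1 is itself induced by CREB. In the other branch calcium-bound calmodulin activates the phosphatase calcineurin, which frees NFAT factors to enter the nucleus, and RCAN1, an NFAT target, binds calcineurin and inhibits it. In liver, CREB is known for driving glucose production during fasting.

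Of the 8 genes, 6 had promoter windows in RefSeq (GRCh38.p14), 18 windows in all, each from 250 bases before to 50 after an annotated start. Windows were searched on both strands for the CRE, TGACGTCA, for its 5-base core TGACG, which every CRE contains, and for the NFAT core GGAAA. Of the 35116 RefSeq windows of this length, 1.85% held the CRE, 24.6% its core and 61.2% the NFAT core. The CRE was in 3 of the 18 windows, 2 overlapping windows of CREM and 1 of RCAN1, its core in 8 and the NFAT core in 11. A match describes the letters only. These 3 windows are shown because they hold a full CRE or, for SIK1, 3 CRE cores, and capitals mark every match to the CRE, its core or the NFAT core on either strand.
SIK1 (chr21:43427082-43427381, minus strand): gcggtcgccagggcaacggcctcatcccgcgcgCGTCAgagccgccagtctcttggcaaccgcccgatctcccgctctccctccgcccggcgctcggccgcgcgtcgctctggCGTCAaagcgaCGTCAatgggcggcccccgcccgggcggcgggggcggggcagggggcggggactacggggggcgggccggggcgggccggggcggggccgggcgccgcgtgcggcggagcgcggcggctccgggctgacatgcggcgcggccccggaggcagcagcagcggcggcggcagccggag
CREM, internal start (chr10:35195652-35195951, plus strand): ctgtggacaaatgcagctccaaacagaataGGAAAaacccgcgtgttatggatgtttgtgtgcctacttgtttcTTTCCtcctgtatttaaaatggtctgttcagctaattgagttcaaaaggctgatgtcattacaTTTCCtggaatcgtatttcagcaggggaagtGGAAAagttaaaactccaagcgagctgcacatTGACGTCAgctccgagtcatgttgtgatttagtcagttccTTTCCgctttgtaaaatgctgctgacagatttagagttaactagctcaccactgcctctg
RCAN1, internal start (chr21:34526773-34527072, minus strand): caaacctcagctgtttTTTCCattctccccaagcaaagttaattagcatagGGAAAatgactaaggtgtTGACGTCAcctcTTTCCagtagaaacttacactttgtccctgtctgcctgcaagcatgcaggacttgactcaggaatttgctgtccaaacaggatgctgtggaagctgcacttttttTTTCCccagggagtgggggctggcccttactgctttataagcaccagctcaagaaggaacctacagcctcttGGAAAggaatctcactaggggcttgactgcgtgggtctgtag
The SIK1 window held the CRE core 3 times, no full CRE and no NFAT core. In the CREM window the CRE began 50 bases before the start, with 5 NFAT cores around it. The internal CREM promoter is known for the repressor ICER. In the RCAN1 window the CRE began 181 bases before the start, again with 5 NFAT cores. The internal RCAN1 start is known for the calcineurin-induced isoform. The deposited values are per gene, so the isoforms of CREM or RCAN1 cannot be told apart.

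Libraries held 14786059 to 19026545 reads, with a mitochondrial share of 6.90% to 8.04%. Some libraries resembled another group more than their own. Across genes, which are not independent, the mean correlation (Pearson) of control 3 was 0.987 with SKF-96365 2 and 3, against 0.959 with the other control libraries. For SKF-96365 1 it was 0.971 with SKF-96365 2 and 3, against 0.978 with control 1 and 2, and its single correlations with 2-APB 1, 2 and 3 were 0.980, 0.981 and 0.988. The library 2-APB 3 also stood apart, at 0.980 and 0.981 with 2-APB 1 and 2, against 0.988 with SKF-96365 1 and 0.986 with control 1. The summed level of 11 DNA replication genes was 16075 to 16927 normalized counts in SKF-96365 2, SKF-96365 3 and control 3, and 25878 to 37729 in the other 6 libraries. The labelled cell type was not borne out by its markers: of 11 hepatocyte genes 1 was tested, ALB did not exceed 11.8 normalized counts and HNF4A did not exceed 2.58, while the mesenchymal marker VIM had a mean of 31329 and the keratin gene KRT8 79421. The blood markers PTPRC and CD3E did not exceed 3.08 and 0.00.

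In GENCODE 29 (GRCh38), CREM lies at chr10:35126791-35212958 and CREB1 at chr2:207529737-207603431, both on the plus strand. NR4A1 is at chr12:52022832-52059507 (plus strand) and NR4A2 at chr2:156324432-156342348 (minus strand). RCAN1 is at chr21:34513142-34615142 and PPP3CA at chr4:101023409-101348278, both on the minus strand, and NFATC3 at chr16:68084751-68229259 on the plus strand. The build behind the deposited values is not given, and these positions serve as identity only.

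Per kilobase of annotated exon, the order of the 8 genes over the 9 libraries was PPP3CA at a mean of 191 normalized counts per kilobase, SIK1 with its copy SIK1B at 182, CREB1 at 128, RCAN1 at 55.2, NFATC3 at 41.7, CREM at 22.3, NR4A1 at 13.7 and NR4A2 at 3.93. Ranges over libraries overlapped between PPP3CA and SIK1, SIK1 and CREB1, and RCAN1 and NFATC3. The order within each of these pairs differed between libraries, so they were not separated. Ranges of CREM and NR4A1 overlapped too, but within every library CREM lay above NR4A1 per kilobase. Lengths are the union of exons in GENCODE 29, which overstates the transcript where isoforms differ. The members also differed in spread. PPP3CA and CREB1 had a highest library 1.19 and 1.20 times their lowest, NFATC3 and RCAN1 1.51 and 1.52 times, CREM 1.95 times, NR4A1 2.84 times, NR4A2 3.60 times and the SIK1 row 15.8 times. For SIK1 and SIK1B summed the ratio was 5.10.

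**Figure D1:**
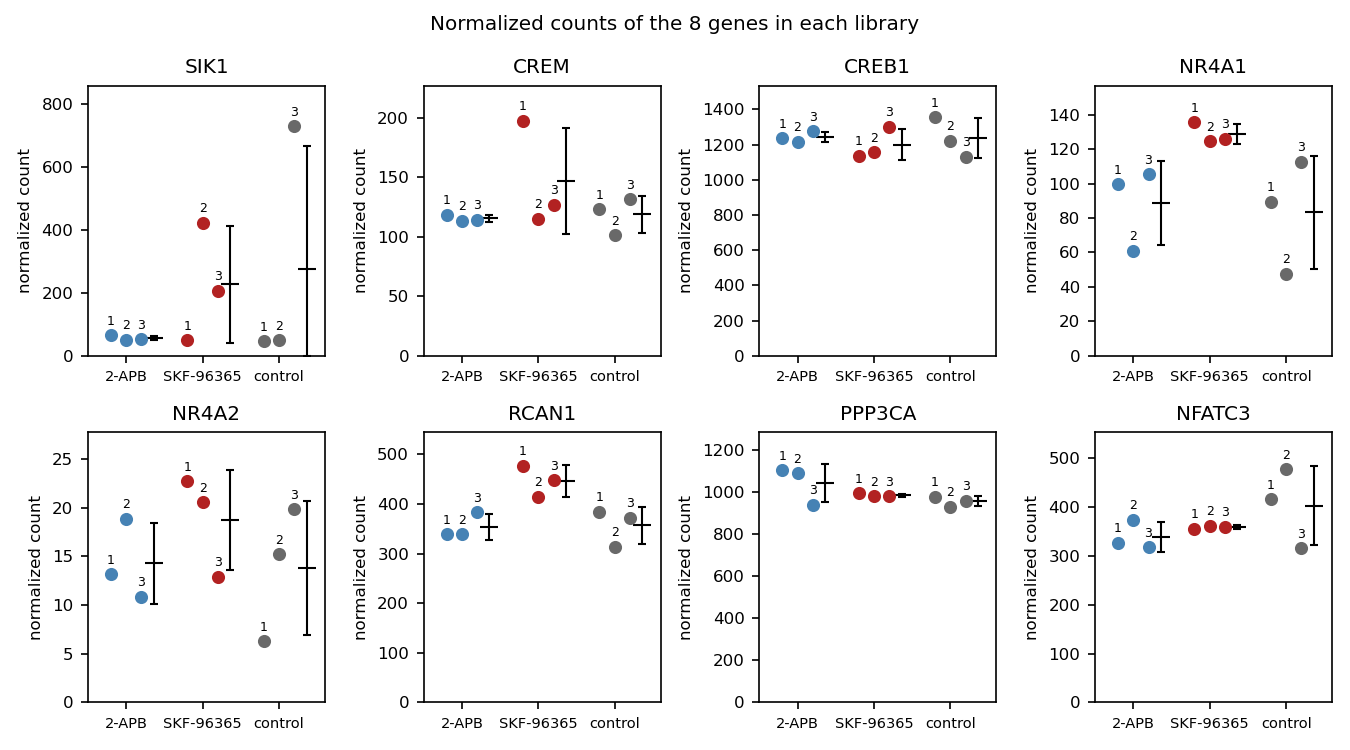
Normalized counts (vertical axes, each from 0) of the 8 genes in the 9 libraries, numbered 1 to 3 within the 2-APB, SKF-96365 and control groups; black bars give the group mean ± SD (n = 3), and the SIK1 control bar is drawn down to 0. SIK1 is high in SKF-96365 2, SKF-96365 3 and control 3, RCAN1 and NR4A1 lie higher in the SKF-96365 libraries, and CREB1 and PPP3CA stay within 1.20 times.

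SIK1, the feedback kinase, stood at 65.8, 51.5 and 53.2 normalized counts in 2-APB 1 to 3, at 50.7, 424 and 207 in SKF-96365 1 to 3, and at 46.3, 50.7 and 729 in control 1 to 3. It was high in 3 libraries, 2 with SKF-96365 and 1 control, and low in the other 6, and its groups overlapped in every comparison. These are the 3 libraries with the low DNA replication level, whose part in the SIK1 level was not tested. In bulk RNA, fewer cells with a transcript and less of it per cell cannot be told apart. The log2 fold change of SIK1 was 0.45 (SE 1.00, 95% interval -1.76 to 2.66) with SKF-96365 against control, where the arithmetic means ran the other way, at 227 with SKF-96365 and 275 in control. With 1 library left out it was between -0.23 (without control 1) and 1.75 (without control 3). It was 1.29 without SKF-96365 1, and negative too without SKF-96365 2 (-0.23) or control 2 (-0.16). With 2-APB against control it was -1.08 (SE 1.00), and 0.22 without control 3, so that its sign rested on that library.

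SIK1 has an annotated near-identical copy, SIK1B, on the same chromosome (SIK1 at chr21:43414483-43427189, minus strand, and SIK1B at chr21:6111134-6123739, plus strand, in GENCODE 29 on GRCh38), and RefSeq lists SIK1B as another name of SIK1. The SIK1B row held most of the signal, at 428, 413 and 419 normalized counts with 2-APB, 562, 1526 and 1431 with SKF-96365, and 371, 376 and 1402 in control. It was high in the same 3 libraries as SIK1, and how the counting divided reads between the copies is not given in the sources used here. The SIK1 row took 13.3%, 11.1% and 11.3% of the sum of both rows in the 2-APB libraries, 8.27%, 21.7% and 12.7% in SKF-96365 1 to 3, and 11.1%, 11.9% and 34.2% in control 1 to 3. The 95% Wilson interval was 32.2% to 36.3% for control 3 and 19.9% to 23.6% for SKF-96365 2. It lay between 6.45% and 16.8% in the other 6 libraries with recovered reads, so the split was unequal beyond counting error. The sum of both rows, an addition made after the values were seen, was 477 ± 14.8 with 2-APB, 1400 ± 700 with SKF-96365 and 992 ± 986 in control (SD, n = 3). Its log2 fold change was 0.79 (SE 0.59) with SKF-96365 against control, with 0.39 (without control 1) and 1.56 (without control 3) as its extremes when 1 library was left out. It was -0.60 (SE 0.59) with 2-APB against control, where it was 0.17 without control 3, and -1.39 (SE 0.59) with 2-APB against SKF-96365, where the groups did not overlap.

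**Figure D2:**
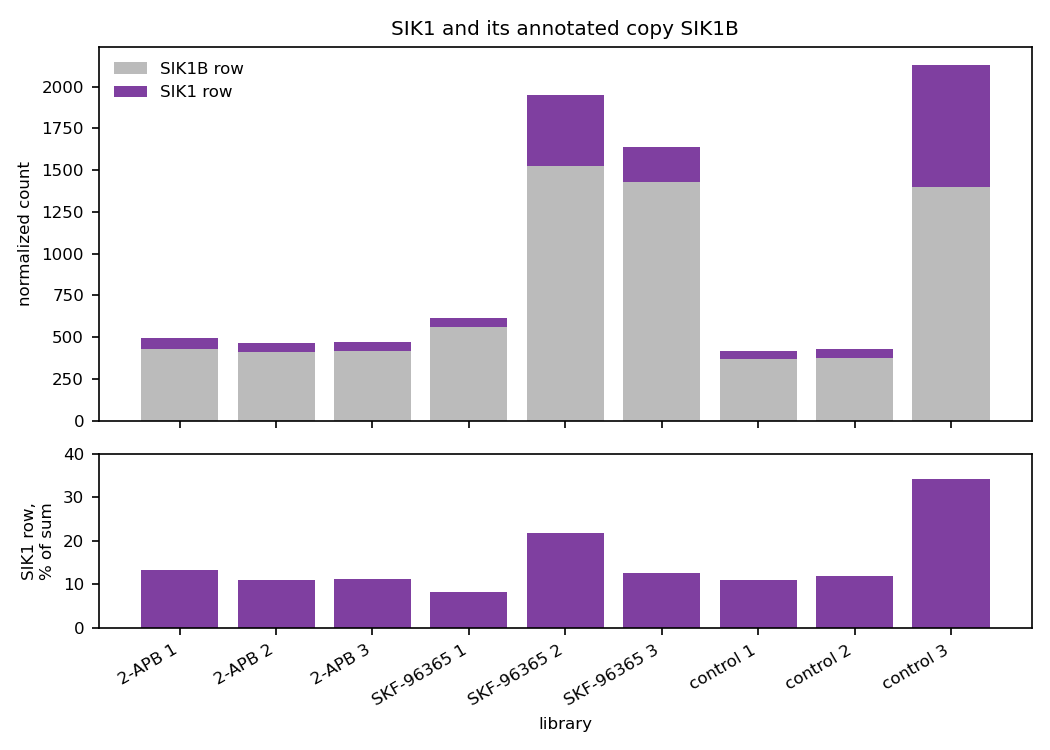
Normalized counts of the SIK1 and SIK1B rows, stacked, in each library (upper panel), and the SIK1 row as a percent of their sum (lower panel). The sum is 1639 to 2131 in SKF-96365 2, SKF-96365 3 and control 3 and 418 to 612 in the other 6 libraries, and the SIK1 share is highest in control 3, at 34.2%.

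CREB1 itself, the activator, stood at 1238, 1217 and 1277 with 2-APB, 1138, 1158 and 1302 with SKF-96365, and 1356, 1221 and 1131 in control. Its 3 groups overlapped, and the 95% intervals of its log2 fold change were -0.23 to 0.26 with 2-APB and -0.29 to 0.21 with SKF-96365 against control. The span of the protein-coding gene METTL21A, with a mean of 709 normalized counts, overlaps that of CREB1 on the opposite strand. Whether their exons overlap was not examined, and without a stated strand setting any shared reads cannot be told apart. CREM, which encodes activators and the repressor ICER, stood at 118, 113 and 114 with 2-APB, 197, 115 and 127 with SKF-96365, and 123, 101 and 131 in control. SKF-96365 1 alone was high, and the groups overlapped. The CREM log2 fold change with SKF-96365 against control, 0.27 (SE 0.22), was 0.04 without SKF-96365 1.

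NR4A1 and NR4A2 encode orphan nuclear receptors that are induced early by cyclic AMP and calcium. NR4A1 stood at 99.8, 61.0 and 106 normalized counts with 2-APB, 135, 124 and 126 with SKF-96365, and 89.4, 47.7 and 113 in control. All 3 SKF-96365 libraries lay above the other 6. The log2 fold change of NR4A1 was 0.71 (SE 0.32, 95% interval -0.00 to 1.41) with SKF-96365 against control, 0.14 (SE 0.32) with 2-APB against control and -0.57 (SE 0.32) with 2-APB against SKF-96365. With SKF-96365 against control it was 0.35 without control 2, 0.96 without control 3 and 0.67 without SKF-96365 1. Without 2-APB 3 the NR4A1 value was -0.01 with 2-APB against control and -0.71 with 2-APB against SKF-96365. Without 2-APB 2 it was -0.32 with 2-APB against SKF-96365, the other extreme of that comparison. NR4A2 was near the limit of detection, at 13.2, 18.9 and 10.8 with 2-APB, 22.7, 20.6 and 12.9 with SKF-96365, and 6.31, 15.2 and 19.8 in control, and its groups overlapped. Its log2 fold change with SKF-96365 against control, 0.51 (SE 0.45), was 0.06 without control 1. These fold changes are on the log2(value + 1) scale, which understates changes of low genes.

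RCAN1, the calcineurin inhibitor, stood at 339, 339 and 384 normalized counts with 2-APB, 477, 414 and 447 with SKF-96365, and 384, 313 and 373 in control. The SKF-96365 libraries lay above the other 6, SKF-96365 1 included. RCAN1 averaged 354 ± 25.7 with 2-APB, 446 ± 31.4 with SKF-96365 and 357 ± 37.9 in control (SD, n = 3). Its log2 fold change was 0.33 (SE 0.13, 95% interval 0.03 to 0.62) with SKF-96365 against control, which is 1.25-fold, and -0.33 (SE 0.13, -0.63 to -0.04) with 2-APB against SKF-96365. With 2-APB against control it was -0.01 (SE 0.13, -0.31 to 0.29). With SKF-96365 against control leaving out control 2 gave 0.24 and leaving out control 1 gave 0.38, the extremes, and it was 0.36 without control 3 and 0.28 without SKF-96365 1. With 2-APB against SKF-96365 the extremes were -0.39 without 2-APB 3 and -0.28 without SKF-96365 1. These intervals are not adjusted for the number of genes: limma's adjusted p for RCAN1 was 0.789 with SKF-96365 against control and 0.684 with 2-APB against SKF-96365.

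PPP3CA, a catalytic subunit of calcineurin, stood at 1103, 1086 and 938 with 2-APB, 992, 979 and 979 with SKF-96365, and 975, 928 and 958 in control. The SKF-96365 libraries lay just above the control libraries, with a log2 fold change at 0.04 (SE 0.11), and the 2-APB libraries lay on both sides of them. The 95% interval for PPP3CA with 2-APB against control was -0.11 to 0.36. NFATC3, an NFAT factor that calcineurin dephosphorylates, stood at 327, 374 and 318 with 2-APB, 356, 362 and 360 with SKF-96365, and 416, 478 and 316 in control. The highest 2 of the 9 were control 1 and 2, and the lowest was control 3. The NFATC3 log2 fold change was -0.23 (SE 0.16) with 2-APB and -0.15 (SE 0.16) with SKF-96365 against control, and both 95% intervals held 0. Leaving out control 3 gave -0.40 with 2-APB and -0.31 with SKF-96365, while leaving out control 2 gave -0.10 with 2-APB and -0.01 with SKF-96365. Both of these contrasts use the same control libraries. The span of the protein-coding gene ESRP2, with a mean of 35.0 normalized counts, overlaps that of NFATC3 on the opposite strand. The limit given for CREB1 and METTL21A holds here too.

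**Figure D3:**
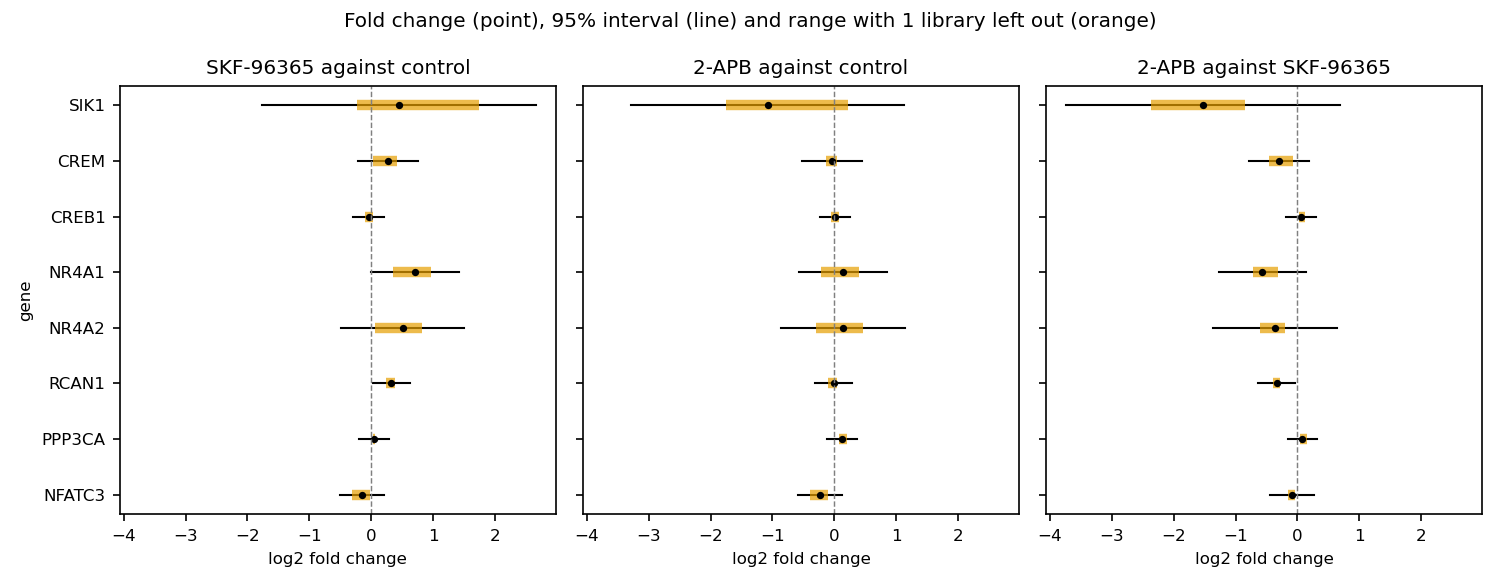
Log2 fold change (horizontal axis) of the 8 genes in the 3 comparisons; points are the estimates, black lines the 95% intervals from limma and orange bars the range when 1 library was left out. The SIK1 interval is the widest, from -1.76 to 2.66 with SKF-96365 against control, and those of CREB1 and PPP3CA lie between -0.29 and 0.36 in all 3 comparisons.

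No member passed limma's test at an adjusted p under 0.05 in any of the 3 comparisons, 0 of 8 each, where 0.00% of the 17492 genes passed in each. At an unadjusted p under 0.05 the members held 1 of 8 (RCAN1) with SKF-96365 against control, where 4.00% of all genes passed, 0 of 8 with 2-APB against control, where 2.80% passed, and 1 of 8 (RCAN1) with 2-APB against SKF-96365, where 7.30% passed. edgeR and DESeq2 on the 8 libraries with recovered reads also called 0 members. With SKF-96365 against control 3 of 8 members had groups that did not overlap, all higher (NR4A1, RCAN1 and PPP3CA), beside 3.26% of all genes, and 0 were lower, beside 2.94%. With 2-APB against control 0 of 8 were apart in either direction, beside 3.61% higher and 3.97% lower. With 2-APB against SKF-96365 2 of 8 were lower (NR4A1 and RCAN1), beside 8.79% of all genes, and 0 higher, beside 8.21%. The members were picked with these contrasts known, and nothing is read from these counts. The median log2 fold change of the 8 was 0.00 with 2-APB against control, 0.30 with SKF-96365 against control and -0.32 with 2-APB against SKF-96365, beside -0.00, -0.00 and 0.01 over all tested genes.

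Around the members, 4 lists of pathway genes were described in the same fits, in which 0 genes passed the adjusted threshold. Over all tested genes the log2 fold change was positive in 49.5% with SKF-96365 against control, 49.7% with 2-APB against control and 51.0% with 2-APB against SKF-96365. Without control 3 it was positive in 8636 of 17492 genes with SKF-96365 against control and in 8501 with 2-APB against control. Of 27 tested genes for CREB relatives, coactivators and upstream kinases, 12 had a positive log2 fold change with 2-APB and 10 with SKF-96365 against control, with medians of -0.05 and -0.15. With 2-APB against SKF-96365 3 of the 27 had groups that did not overlap and were lower, beside 8.79% of all genes. In the same comparison 2 were higher, beside 8.21%. The most abundant of the 27 were PRKAR1A and PRKAR2A, regulatory subunits of protein kinase A, with means of 4311 and 2107, and the CREB kinase gene RPS6KA3 with 1473. RPS6KA3 stood at 1363, 1409 and 1308 with 2-APB, against 1524, 1548 and 1719 with SKF-96365 and 1410, 1546 and 1433 in control, and its 2-APB libraries lay below the other 6, by under 1 normalized count between 2-APB 2 and control 1. The widest spread was in PRKAR2B, another regulatory subunit, which was at 79.1 in control 2 and from 223 to 269 in the other 8 libraries. RPS6KA4, which encodes the CREB kinase MSK2, was at 834 to 1047 in SKF-96365 2, SKF-96365 3 and control 3 and from 1250 to 1973 elsewhere. CAMKK1, a calcium-calmodulin kinase kinase, was highest in control 3 (530) and lowest in control 2 (218).

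Of 27 listed CREB targets 21 were tested. With SKF-96365 against control 16 of the 21 were positive (median 0.32), with 2-APB against control 5 (median -0.10), and with 2-APB against SKF-96365 6 (median -0.59), where 10 had groups that did not overlap, lower with 2-APB, beside 8.79% of all genes, and 1 was higher, beside 8.21%. With SKF-96365 against control 0 were higher and 1 was lower without overlap, beside 3.26% and 2.94% of all genes. With 2-APB against control 0 were higher and 3 lower, beside 3.61% and 3.97%. In the comparison of 2-APB with SKF-96365 all 11 DNA replication genes were positive (median 0.69). Of these, 8 were higher without overlap, beside 8.21% of all genes. The part of this difference in the CREB target values was not tested. Without control 3, a choice made after seeing the data, 16 were positive with SKF-96365 (median 0.51) and 7 with 2-APB (median -0.12) against control. PER1, a circadian repressor, stood at 273, 261 and 189 with 2-APB, 271, 742 and 747 with SKF-96365 and 166, 199 and 723 in control. DUSP1, a MAP kinase phosphatase, stood at 1022, 1139 and 1214 with 2-APB, 1703, 2636 and 2876 with SKF-96365 and 1444, 1102 and 2859 in control. The small GTPase gene GEM ran from 86.8 to 100 with 2-APB and from 240 to 429 with SKF-96365, and was at 107, 73.0 and 402 in control. IRS2, an insulin receptor substrate, ran from 2821 to 2923 with 2-APB and from 3696 to 5485 with SKF-96365, and was at 3025, 3178 and 5564 in control. PER1, DUSP1, GEM and IRS2 thus had their 3 highest libraries in SKF-96365 2, SKF-96365 3 and control 3, the libraries where SIK1 was high. EGR1, an early growth response factor, was highest elsewhere, at 342 in SKF-96365 1, and had 30.4 to 163 in the other 8. BDNF, a neurotrophin gene, ran from 1012 to 1155 with 2-APB, from 879 to 968 with SKF-96365 and from 1001 to 1186 in control. The fasting enzyme genes PCK1 and G6PC1, named after their values were seen, did not exceed 2.58 and 3.04 normalized counts in any library.

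Of 20 tested genes for calcineurin, NFAT and their regulators, 6 were positive with 2-APB and 8 with SKF-96365 against control (medians -0.06 and -0.07), and without control 3 these medians were -0.14 and -0.16. With 2-APB against SKF-96365 4 of the 20 were lower without overlap, beside 8.79% of all genes, and 1 was higher, beside 8.21%. The calmodulin genes CALM2 and CALM3 had means of 15664 and 6495, and FKBP1A, whose product binds calcineurin together with tacrolimus, 5374. CALM3 varied little, with a log2 SD of 0.07 over the 9 libraries, and its 2-APB libraries (6663 to 6953) lay above its control libraries (5973 to 6398). NFATC4 was at 126 to 139 in SKF-96365 2, SKF-96365 3 and control 3 and from 40.2 to 87.6 elsewhere, while NFATC2 ran from 33.4 to 88.8 with its lowest value in control 3. AKAP5, which anchors calcineurin and protein kinase A, stood at 50.1 to 58.5 in those 3 libraries and at 72.5 to 111 in the other 6.

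Of 28 listed NFAT targets and MEF2 partners 15 were tested, with 4 positive with 2-APB against control (median -0.12) and 10 positive with SKF-96365 against control (median 0.21). With 2-APB against SKF-96365 5 were positive (median -0.21). In that comparison 5 were lower with 2-APB without overlap, beside 8.79% of all genes, and 0 were higher, beside 8.21%. Without control 3, 7 were positive with 2-APB against control and 11 with SKF-96365 against control. ADAMTS1, a secreted protease gene, stood at 2309, 2345 and 2976 with 2-APB, 3367, 8008 and 8354 with SKF-96365 and 4042, 3701 and 7441 in control, so its 2-APB libraries lay below the other 6. The class IIa histone deacetylase gene HDAC9 stood at 65.8 to 82.4 with 2-APB, against 103 to 225 with SKF-96365 and 74.7 to 195 in control. CXCL8, a neutrophil chemokine gene, stood at 156, 125 and 1361 with 2-APB, 2828, 995 and 1012 with SKF-96365 and 686, 113 and 998 in control, with 2-APB 3 above the other 2 libraries of its group. CCND1, the cyclin D1 gene, ran from 5641 to 5750 in SKF-96365 2, SKF-96365 3 and control 3 and from 6917 to 12856 elsewhere. HDAC7 varied less, between 1532 and 2185.

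**Figure D4:**
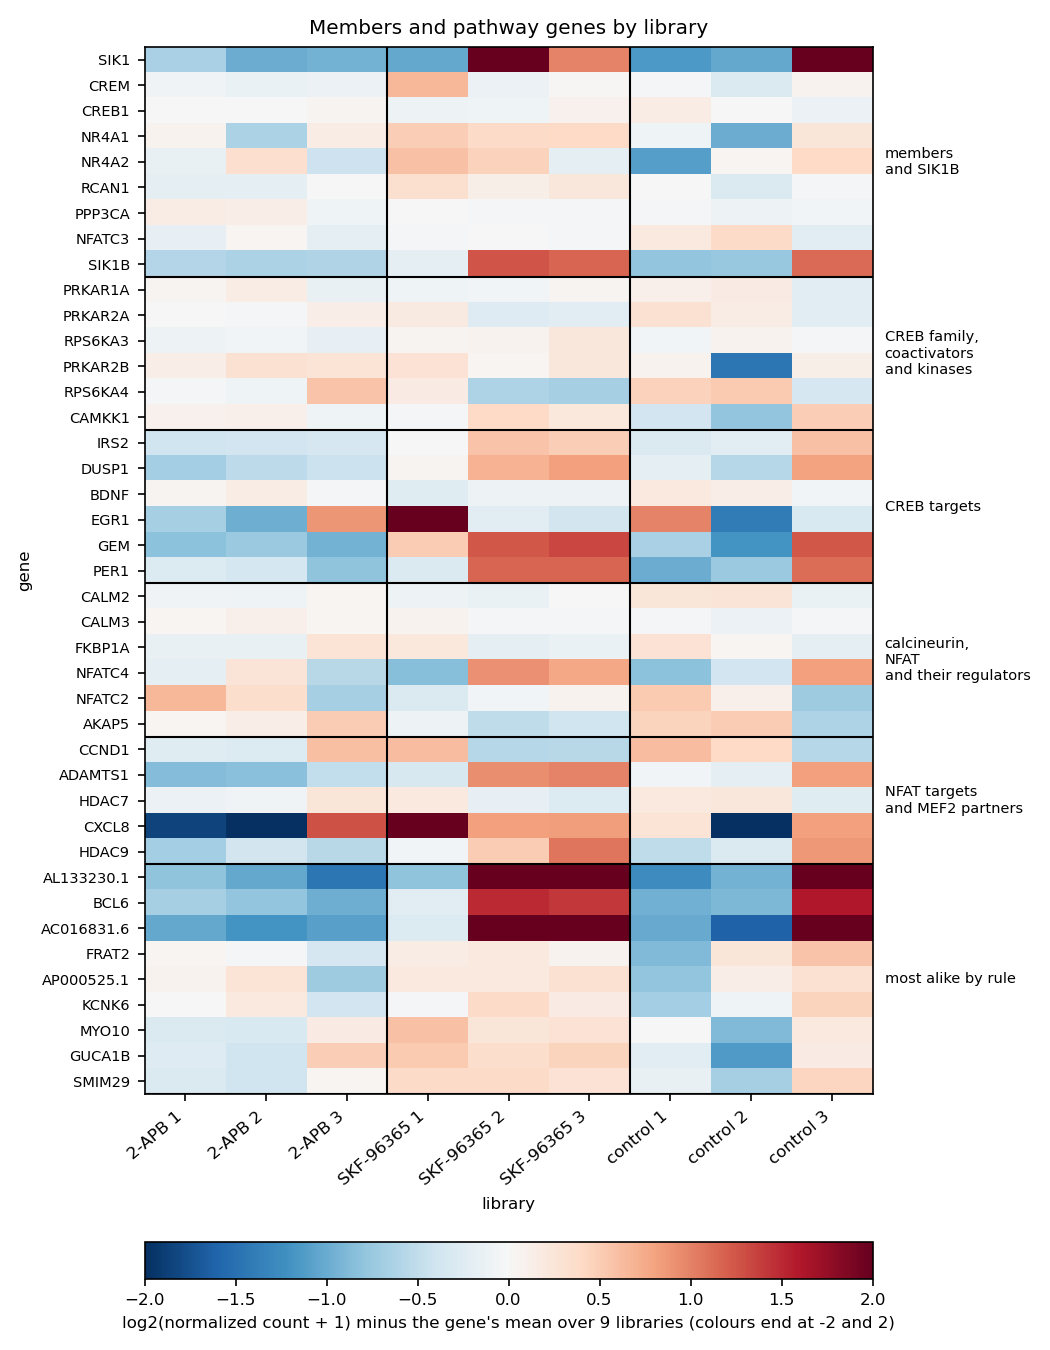
Log2(normalized count + 1) of each gene (rows) minus its own mean over the 9 libraries (columns, by group), for the 8 members and SIK1B, the named genes of 4 lists and the genes most like 3 members; colours end at -2 and 2. SIK1, SIK1B, GEM, PER1 and BCL6 are above their mean in SKF-96365 2, SKF-96365 3 and control 3.

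The genes closest in pattern were found for the members SIK1, NR4A2 and NR4A1, which had the widest spread, by the root mean square (RMS) difference between centred log2 values over the 9 libraries, among up to 12381 genes whose mean reached 50. Closest to SIK1 were the antisense RNA gene AL133230.1 (RMS difference 0.48 log2 units, against a RMS of 1.44 for SIK1 about its own mean), the transcriptional repressor gene BCL6 (0.54) and the long noncoding RNA gene AC016831.6 (0.55). BCL6 stood at 201, 186 and 162 normalized counts with 2-APB, 274, 904 and 852 with SKF-96365 and 164, 171 and 968 in control. Closest to NR4A1 were MYO10, an unconventional myosin (0.18, against a RMS of 0.47 for NR4A1), GUCA1B (0.19) and SMIM29 (0.20). MYO10 stood at 1130, 1122 and 1546 with 2-APB, 2079, 1635 and 1701 with SKF-96365 and 1381, 753 and 1594 in control. Its lowest library was control 2, as for NR4A1. Closest to NR4A2 were FRAT2, AP000525.1 and KCNK6, at 0.26 to 0.29 against a RMS of 0.50 for NR4A2, and its low values make this likeness uncertain.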

How the data were processed

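The authors deposited 1 table of normalized signal per gene. DESeq2 is the tool named, per the submitters' processing notes and the labels, and other upstream steps, strandedness among them, are not given in the sources used here. Symbols were matched by identifier, with GENCODE 29 for identifiers that had none. In each library 100% of values came out as whole multiples of 1 step, with a tolerance of 0.001 reads, which gave back read numbers in 8 libraries. In SKF-96365 3 the step was 0.992, the nearest to 1, and by choice its read numbers were not used, although its values fitted the step equally well. Libraries with steps of 0.986 (2-APB 3) and 1.014 (control 2) were kept. Count models used the other 8 and so had fewer SKF-96365 libraries than libraries of the other groups. PCR reads are not independent molecules, so intervals on reads cover counting error only.

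Genes were tested with limma 3.58.1 (R 4.3.3, intensity trend, two-sided) on log2(value + 1), all 9 libraries sharing 1 spread estimate per gene, with Benjamini-Hochberg adjustment over 17492 genes. edgeR 4.0.16 and DESeq2 1.42.0 were run beside it. All 3 were also run on simulated counts. These had the same dispersion for every gene and no likeness between libraries of different groups, so that run does not measure power or error rates in these data. The members and gene lists were chosen with earlier results of these data known. Members are all named; from each list, the 3 most abundant genes and, above a mean of 50, the 3 most variable on the log2 scale are named, and so are the 3 genes most alike to each of the 3 most variable members. Other genes were chosen after their values were seen. Alternatives were another pseudocount (0.5 or 5), filter or scaling, no variance trend, only the groups compared, a replicate block and each library left out. Promoter sequences are from RefSeq (GRCh38.p14).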

Additional observations from a re-analysis of the deposited data

How the results depend on the processing

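No member was called under any alternative in any comparison. The number of genes called over the whole table, 0 in each comparison, ran from 0 to 173 with SKF-96365 against control and from 0 to 4 with 2-APB against SKF-96365 when 1 library was left out; the 173 and the 4 came without control 3. With 2-APB against control it stayed at 0 in the fits run. edgeR called 0 genes in each comparison. DESeq2 called 2 genes with SKF-96365 against control and 1 with 2-APB against SKF-96365, and a fit of only the 2 groups compared called 4 with 2-APB against SKF-96365; the cause was not tested. The replicate block called 0 genes and 0 members in each comparison. Whether the numbers 1 to 3 pair the libraries is not known. Deviations from the group mean correlated from -0.35 to 0.50 across genes in the 9 same-numbered pairs, and from -0.57 to 0.48 in differently numbered pairs. Within a group of 3 libraries the deviations sum to 0, which ties these correlations to one another, so they cannot settle pairing. Of 504 member fold changes under an alternative, 22 changed sign, all of them in SIK1, CREB1, CREM, NR4A1, NR4A2 and RCAN1. With groups of equal size, another filter, no variance trend, only the groups compared and the replicate block leave the estimate unchanged. So does leaving out a library of the third group. The 22 of 504 therefore overstates how stable the signs were. For SIK1 with SKF-96365 against control the sign changes included -0.22 in both edgeR and DESeq2, which lacked SKF-96365 3. Values of NR4A2, at most 22.7 normalized counts, are limited by depth.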
